A study of Saccharomyces cerevisiae with 24 samples.

Results

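Open chromatin was compared between small and larger samples of the same kind of yeast colony: 3 peak lists made from 4 mg of colony were set against 3 made from 100 mg. The members are the FAIRE libraries labelled 4 mg and 100 mg, which are 6 of the 12 FAIRE lists in a series of 24 samples. The question the design puts is whether a FAIRE procedure adapted to low cell numbers marks the same genes and genomic classes when the biomass is lowered. All samples came from giant colonies of Saccharomyces cerevisiae BY4742, a laboratory strain lacking several genes of amino acid and uracil synthesis, grown at 28 °C on agar with glycerol and ethanol and the pH dye bromocresol purple. Cells were lifted off with a spatula on day 3. FAIRE material was fixed with formaldehyde and peaks of each list were called over a paired library of unfixed input DNA. The 4 mg and 100 mg groups differed in biomass and shared strain, medium, day and library chemistry, and the labels describe 3 biological replicates of each. No label says whether these came from separate colonies or plates, so the p-values measure the spread between these samples only.

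FAIRE (formaldehyde-assisted isolation of regulatory elements) separates DNA that is poorly cross-linked to protein from the bulk of chromatin. In yeast the best-known source of such DNA is the nucleosome-depleted region upstream of active genes, where transcription factors and the transcription machinery bind, and tRNA genes are also kept free of stable nucleosomes by their transcription factors. Growth on glycerol and ethanol depends on respiration and on gluconeogenesis, and giant colonies are known for signalling by ammonia.

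The strain and the libraries were looked at first. LYS2, LEU2 and URA3, which BY4742 lacks, had no summit in promoter or coding sequence in any of the 6 lists, whereas HIS3, which is disrupted and not wholly removed in this strain, had a coding summit in all 6. Nuclear peaks numbered 5076, 4500 and 4919 in the 4 mg lists and 4157, 4961 and 5737 in the 100 mg lists. The first 100 mg replicate stood apart. It had the fewest peaks and no peak over the annotated ribosomal DNA, a span of 17357 bp on chromosome XII (451575 to 468931, build R64) that peaks covered for 100% in each 4 mg list, 100% in the second 100 mg list and 88.0% in the third. The third 100 mg replicate had the most peaks and the weakest, since 64.5% of them reached a −log10 q of 5, against 88.4%, 86.3% and 97.3% in the 4 mg lists and 79.0% and 92.9% in the other 100 mg lists. In 4 mg replicates 2 and 3 and 100 mg replicate 1 the read pileup recovered from the deposited values was not in whole reads, unlike in the remaining lists. What these features contribute to the differences below was not tested, and values without each list are given where they matter.

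**Figure D1:**
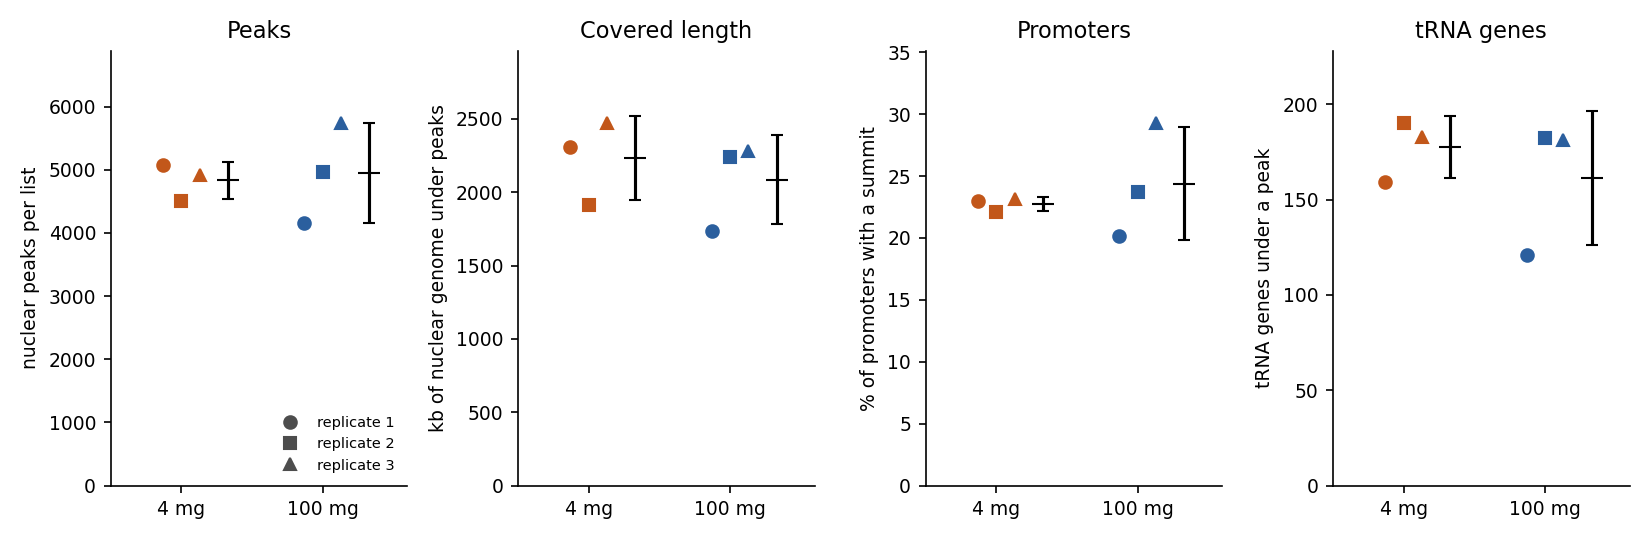
Nuclear peaks, length under peaks, percent of promoters with a summit and tRNA genes under a peak in each 4 mg list (orange, left) and each 100 mg list (blue, right), with the mean and SD of 3 lists in black. The 100 mg lists enclose or overlap the 4 mg lists in every panel, and 100 mg replicate 1 is the lowest point in all 4.

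The amount of genome marked did not differ between the 4 mg and 100 mg lists beyond the spread between replicates. Promoters, taken as the 500 bp upstream of the start codon, held a summit for 23.0%, 22.1% and 23.2% of 6000 protein-coding genes in the 4 mg lists, against 20.2%, 23.7% and 29.3% in the 100 mg lists. The 4 mg values lay close together inside the range of the 100 mg values. Means are given ± SD over the 3 lists of a biomass (n = 3 each) from here on. They were 22.8% ± 0.561 at 4 mg and 24.4% ± 4.58 at 100 mg, a difference of -1.64 percentage points with a two-sided exact permutation p of 0.7. Peaks covered 2310, 1916 and 2470 kb in the 4 mg lists and 1735, 2243 and 2279 kb in the 100 mg lists, with means of 2232 ± 285 kb and 2085 ± 304 kb (exact permutation p = 0.5). Peak number (difference -120, exact permutation p = 0.9) and median width (300 ± 39.6 bp at 4 mg and 312 ± 24.0 bp at 100 mg; exact permutation p = 0.7) did not pass either. All 4 adjusted p-values were 0.9, and 0.1 is the smallest p that 3 lists against 3 can give. None of these 4 measures (0%) was free of overlap. The difference in peak number was -517 when 100 mg replicate 1 was left out and 273 when 100 mg replicate 3 was left out, and that in promoters was 0.797 points when 100 mg replicate 3 was left out, so both directions rest on single 100 mg lists.

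No class of the genome gained or lost summits beyond the spread between replicates. Each summit was placed in 1 of 9 classes, and the exact permutation p-values ran between 0.1 and 0.9, all 0.9 after adjustment. Protein-coding sequence beyond the first 300 bp held 51.4% ± 1.05 of summits at 4 mg and 50.9% ± 0.607 at 100 mg, less than its 57.1% of the genome, and the first 300 coding bp held 23.1% ± 0.723 and 23.3% ± 1.17, more than their 14.4% of the genome. Divergent intergenic DNA, between genes transcribed away from each other and thus promoter for both, held 9.84% ± 0.647 of summits at 4 mg and 10.1% ± 0.354 at 100 mg. It made up 8.69% of the genome. Convergent intergenic DNA, which lies between gene ends, held 1.18% ± 0.137 at 4 mg and 1.22% ± 0.350 at 100 mg, well under its 4.25% of the genome. Transfer RNA genes held 2.18% ± 0.0858 and 1.96% ± 0.490 of summits, although they make up 0.182% of the genome.

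Tandem intergenic DNA, between genes read in the same direction, was the only class whose lists did not overlap, which is 1 of 9 or 11.1% of class measures. It held 9.97%, 10.6% and 10.5% of summits in the 4 mg lists and 10.6%, 10.7% and 10.9% in the 100 mg lists. All 4 mg values were lower, with means of 10.4% ± 0.342 and 10.7% ± 0.123 and a difference of -0.359 percentage points. The exact permutation p was 0.1 and the adjusted p 0.9, so the difference did not pass. Tandem intergenic DNA made up 13.4% of the genome, more than its share of summits in any of the 6 lists. Among the 16 nuclear chromosomes, only chromosome II had lists that did not overlap (1 of 16, 6.25%), with 6.95% ± 0.210 of summits at 4 mg and 7.27% ± 0.0754 at 100 mg (exact permutation p = 0.1, adjusted p = 1). The share of summits within 20 kb of a chromosome end was 6.84%, 5.31% and 5.41% at 4 mg and 5.80%, 5.56% and 6.66% at 100 mg, ranges that overlapped.

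**Figure D2:**
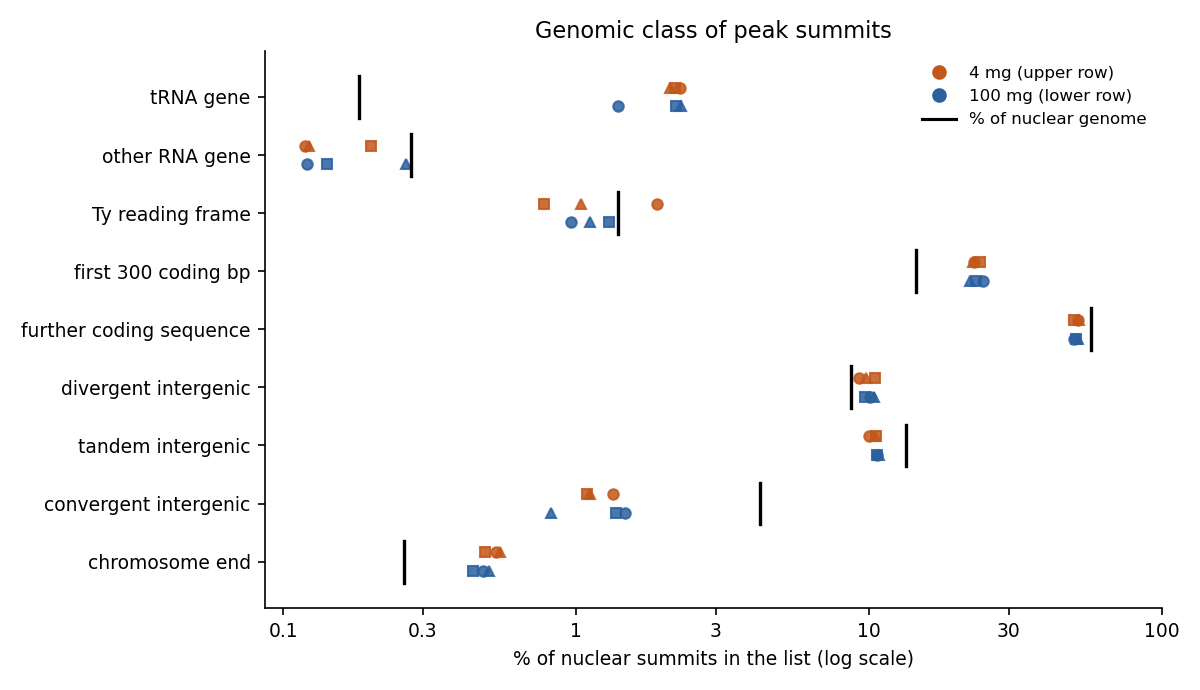
Percent of nuclear summits in each genomic class (log scale) for the 3 4 mg lists (orange, upper row of each class) and the 3 100 mg lists (blue, lower row), with the class's percent of the nuclear genome as a black bar. The points of both biomasses lie together in every class, far above the genome share for tRNA genes and far below it for convergent intergenic DNA.

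Along genes, summits of both groups were scarce just upstream of the start codon and most frequent just inside the reading frame. The 100 bp before the start codon held 0.956% ± 0.0933 of summits at 4 mg and 1.30% ± 0.389 at 100 mg, whereas the interval from 100 to 200 bp inside held 9.88% ± 0.254 and 10.2% ± 0.534. A lower maximum lay 200 to 300 bp upstream, with 5.37% ± 0.278 at 4 mg and 5.50% ± 0.261 at 100 mg. Of 20 intervals of 100 bp, 2 (10%) had lists that did not overlap. From 700 to 800 bp inside the gene the share was 3.10% ± 0.0725 at 4 mg and 2.84% ± 0.173 at 100 mg, and from 1000 to 900 bp upstream it was 1.01% ± 0.0345 and 1.08% ± 0.0393.

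**Figure D3:**
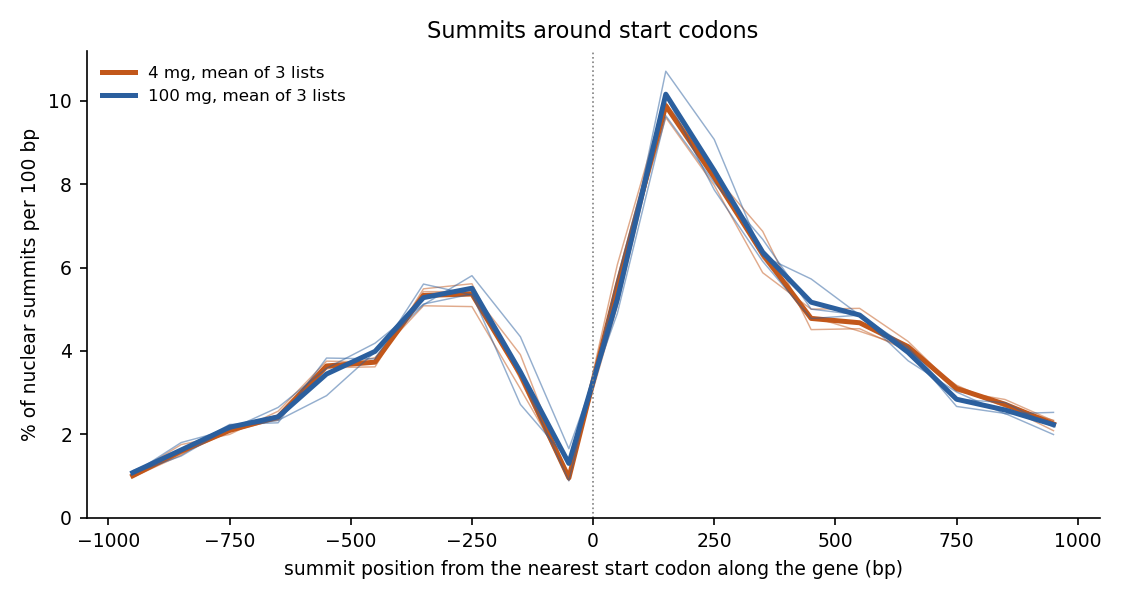
Percent of nuclear summits per 100 bp by position from the nearest start codon along the gene, as the mean of 3 lists (thick) and each list (thin), for 4 mg (orange) and 100 mg (blue). The curves of both biomasses run together, with a dip just before the start codon and a maximum 100 to 200 bp inside the gene.

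How alike 2 lists were did not follow biomass. The share of covered bases common to a pair of lists, out of those covered in either, was 60.3% to 71.9% within 4 mg, 54.5% to 57.5% within 100 mg and 49.5% to 80.5% across biomasses. The most alike of all 15 pairs were 4 mg replicate 3 and 100 mg replicate 2, at 80.5%. Among the 500 strongest peaks of each list, that same pair shared 51.4%, close to the highest pair within 4 mg at 51.8%, whereas 4 mg replicate 2 and 100 mg replicate 1 shared 5.6%. These strongest peaks lay in promoter-bearing intergenic DNA for 46.4%, 53.0% and 60.8% in the 4 mg lists, against 31.6%, 52.8% and 65.6% in the 100 mg lists, so the makeup of the strongest peaks varied more among the 100 mg lists than between the groups. Their median width was 482, 489 and 664 bp at 4 mg and 437, 440 and 481 bp at 100 mg, a separation that is described here and was not tested.

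Very few promoters separated the groups. A summit lay in the promoter of 718 genes in all 6 lists and of 3729 genes in none. Only 7 promoters (0.117% of 6000) had a summit in all 3 4 mg lists and no 100 mg list, and 10 (0.167%) had the reverse. By a looser count, 171 promoters had a summit in some 4 mg list and no 100 mg list, against 460 in some 100 mg list and no 4 mg list. Of the 460, 303 were marked in 100 mg replicate 3 alone, the list with the most and weakest peaks. Likewise 173 promoters were marked in all 3 4 mg lists and 2 of 3 100 mg lists, and for 122 of them the list lacking the summit was 100 mg replicate 1.

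The 7 promoters marked at 4 mg alone belonged to TMA10, a protein found with ribosomes, SRL1, a cell wall mannoprotein, TRS120, a subunit of a vesicle tethering complex, FAF1, needed to make the small ribosomal subunit, TFC7, a subunit of the factor TFIIIC that binds tRNA genes, and the less known frames YER152C and YAL065C. Most were changes of summit position at the edge of the window and not of presence. At SRL1 (chromosome XV, window 797176 to 797675) the 4 mg summits lay at -485, -500 and -498 bp from the start codon, and the nearest 100 mg summits 5, 6 and 7 bp beyond the window's far edge. The window was under a peak in all 6 lists, for 154, 97 and 147 bp at 4 mg and 165, 105 and 114 bp at 100 mg. TMA10 and TRS120 likewise had peaks over the window in every list, with the nearest 100 mg summit 15, 92 and 34 bp outside it at TMA10 and 12, 7 and 11 bp outside it at TRS120.

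FAF1 and TFC7 were the only 2 of the 7 whose promoter had no base under a peak in any 100 mg list. FAF1 (chromosome IX, window 314593 to 315092) had summits at -155, -474 and -483 bp from the start codon in the 4 mg lists, with 184, 110 and 121 bp covered. The peak of 4 mg replicate 1 was thus a different one from that of replicates 2 and 3. The nearest 100 mg summits lay 1433, 1458 and 1480 bp away. TFC7 (chromosome XV, window 528441 to 528940) had summits at -472, -456 and -456 bp in the 4 mg lists, with 140, 136 and 128 bp covered. These summits, at 528469, 528485 and 528485, lay inside the neighbouring gene INP53 (525278 to 528601), a phosphoinositide phosphatase, whose end overlaps the window. The segment common to the 3 4 mg lists (528408 to 528568) was INP53 coding sequence, so the TFC7 call rests on a peak inside INP53. Both promoters were marked in 3 of 3 20 mg lists, and at 500 mg in 3 lists for FAF1 and 2 for TFC7, so the 100 mg lists were the ones that lacked them.

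The 10 promoters marked at 100 mg alone included RPM2, the protein subunit of mitochondrial RNase P, TNA1, the nicotinic acid permease, CDC48, an ATPase that pulls apart ubiquitinated complexes, YAT1, a carnitine acetyltransferase, MAC1, the copper-sensing transcription factor, MRPL37, a mitochondrial ribosomal protein, and the frames YFL015C and VPR1. KRR1, needed for 18S rRNA maturation, and CHA4, an activator of serine and threonine breakdown, complete the set. The 100 mg summits of MRPL37, at 740852, 740874 and 740830, lay in a region classed as coding sequence beyond the first 300 bp. In all 10 some 4 mg list had at least 50 bp of the window under a peak, and in 8 all 3 did. MAC1 (chromosome XIII, window 318419 to 318918) shows the pattern. Its 4 mg summits lay 42, 35 and 26 bp inside the reading frame, whereas its 100 mg summits lay at -167, -163 and -155 bp, upstream of the start codon, with 206, 197 and 213 bp of the window covered at 4 mg and 238, 239 and 389 bp at 100 mg. At CDC48 (chromosome IV, window 238665 to 239164) the 4 mg lists covered 357, 103 and 331 bp and the 100 mg lists 500, 399 and 362 bp, with the nearest 4 mg summits 59, 72 and 32 bp outside the window.

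Counting a promoter as marked when a peak covers 50 bp of it, in place of holding a summit, gave 2 promoters of 100 mg alone, neither of them among the 10, while FAF1 and TFC7 kept their place at 4 mg. A window of 250 bp gave 1 of 4 mg alone, which was YAL065C, and 5 of 100 mg alone, with CDC48, YAT1 and MAC1 among them. Since a list left out relaxes the rule to fewer lists, the counts grew to between 13 and 29 for 4 mg (highest without 100 mg replicate 2) and between 18 and 41 for 100 mg (highest without 100 mg replicate 2).

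Inside reading frames the separating genes were also few, and most of them had no peak at the other biomass. A coding summit was found in all 6 lists for 1815 genes and in none for 2283. The 4 mg lists alone marked 12 coding sequences (0.2% of 6000) and the 100 mg lists alone 10 (0.167%). In 10 of the 12 and 7 of the 10, no list of the other biomass had any base of the coding sequence under a peak.

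The 12 of 4 mg were BIM1, which binds microtubule plus ends, NUS1, of dolichol synthesis, MSC2, a zinc transporter of the endoplasmic reticulum, PEP8, a retromer subunit, PRM9, a pheromone-regulated membrane protein, GLG1, a glycogenin that primes glycogen, BUL2, an adaptor of the ubiquitin ligase Rsp5, KSS1, a MAP kinase of filamentous growth, ITR2, an inositol transporter, TMA22, MRP4, a mitochondrial ribosomal protein, and MCH2, related to monocarboxylate permeases. PEP8 (chromosome X, 335898 to 337037) had summits 666, 648 and 670 bp inside the gene in the 4 mg lists, under peaks covering 215, 163 and 189 bp, and no covered base in the 100 mg lists, whose nearest summits lay 778, 744 and 768 bp outside the gene. GLG1 (chromosome XI, 552770 to 554620) had summits at 997, 982 and 1006 bp in the 4 mg lists and none in the 100 mg lists. BUL2 (chromosome XIII, 46942 to 49704) had them at 161, 169 and 176 bp, near the start of the gene. At these 3 genes the 4 mg summits lay close together, but at BIM1 they lay at 937, 463 and 920 bp and at MRP4 at 784, 409 and 726 bp, so that different peaks marked the gene in different lists. Of the 12, 7 had a coding summit in 3 of 3 20 mg lists and 10 in 3 of 3 500 mg lists. Over all genes, single 20 mg lists had a coding summit in 58.30%, 59.18% and 57.45%. The shares in single 500 mg lists were 48.17%, 49.52% and 50.02%. TMA22 alone had none at either of these biomasses, but 100 mg replicate 1 had 514 bp of the gene under a peak. The 100 mg summits nearest to TMA22 lay 126, 425 and 122 bp outside it.

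The 10 of 100 mg were CNN1, a kinetochore protein, CAD1, a stress transcription factor of the AP-1 family, the ribosomal protein genes RPS8A and RPL16B, AMA1, a meiotic activator of the anaphase-promoting complex, QRI7, which modifies mitochondrial tRNA, PMT3, a protein mannosyltransferase, the overlapping frames ADF1 and FYV5, and YAL065C. CNN1 (chromosome VI, 243074 to 244159) had summits at 567, 584 and 567 bp in the 100 mg lists, under peaks of 229, 188 and 268 bp, and no covered base in the 4 mg lists. CAD1 and PMT3 were marked by different peaks, at 128, 567 and 620 bp and at 937, 1819 and 1843 bp. RPL16B (chromosome XIV, 493956 to 495001) had summits at 729, 724 and 703 bp at 100 mg and none at 4 mg, and RPS8A at 397, 447 and 346 bp. RPS8A and RPL16B each have a near-identical copy elsewhere in the genome, and no source used here says how reads with several matches were treated, so their peaks are uncertain. ADF1, FYV5 and the KRR1 promoter overlap and share the same summits, so these 3 entries are 1 peak. At 20 mg 7 of the 10 had a coding summit in 3 of 3 lists, and at 500 mg 1 of the 10 did. The single-list shares of all genes at 20 mg and 500 mg are those given above for the genes of 4 mg.

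YAL065C, a frame near the left end of chromosome I with similarity to flocculin genes, appeared in both directions. Its 4 mg summits lay at -91, -110 and -107 bp, upstream of the start codon, and its 100 mg summits 144, 116 and 127 bp inside, under peaks that covered the promoter and the frame in all 6 lists. Requiring a −log10 q of 5 gave 24 coding sequences of 4 mg alone and 4 of 100 mg alone. With single lists left out the counts reached 49 for 4 mg (leaving out 100 mg replicate 2) and 39 for 100 mg (leaving out 100 mg replicate 1).

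**Figure D4:**
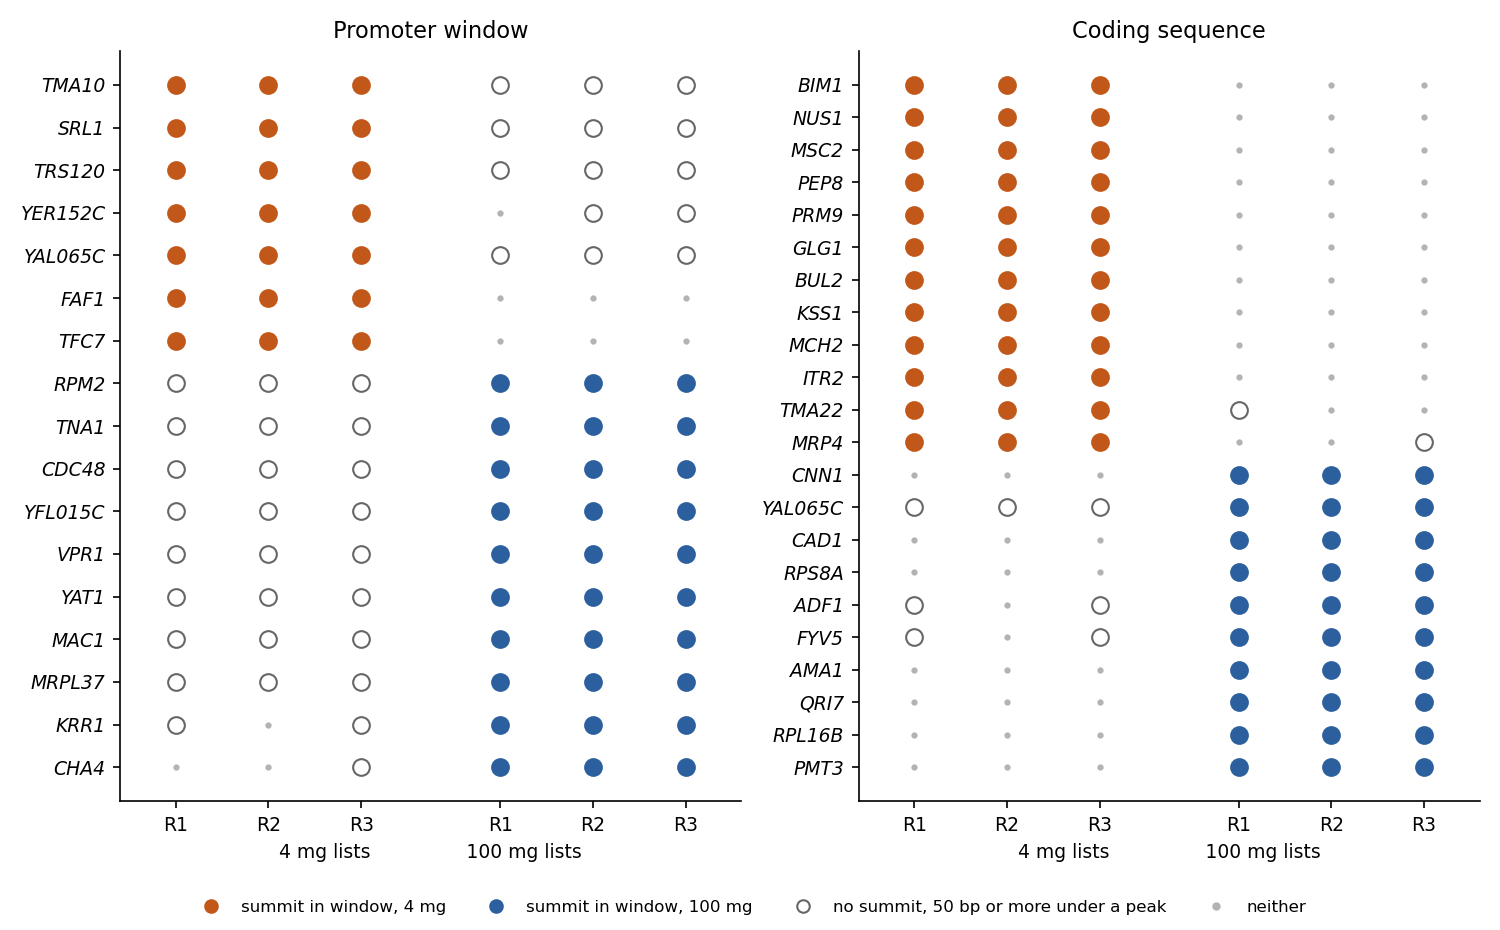
The promoters (left panel) and coding sequences (right panel) that separate the groups, by list, 4 mg at the left and 100 mg at the right of each panel. Filled circles are lists with a summit in the window, open circles lists with at least 50 bp under a peak and no summit, and dots lists with neither; open circles take most of the positions without a summit in the promoter panel and few of them in the coding panel.

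Regions were then compared without reference to annotated windows. Of 4234 segments under a peak in all 3 4 mg lists, 31 (0.732%) touched no peak of any 100 mg list. Of 3789 segments common to the 100 mg lists, 11 (0.29%) touched no 4 mg peak. All but 1 of the 31 and all 11 lay inside reading frames, and 23 of the 31 (74.2%) and 9 of the 11 (81.8%) lay beyond the first 300 coding bp, a class with 49.8% of all common segments at 4 mg and 50.1% at 100 mg. They were short, with a median of 155 bp at 4 mg and 172 bp at 100 mg.

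The 5 widest of 4 mg lay between YLR157W-D and its neighbour, and in CIN1, a tubulin folding factor, YIL108W, PRM9 and MCM4, a subunit of the replicative helicase. The CIN1 segment (chromosome XV, 989762 to 989984) sat at the start of the frame and the nearest 100 mg peaks began 478, 93 and 112 bp away. The MCM4 segment (chromosome XVI, 597954 to 598127) was farther from them, at 3606, 3620 and 871 bp. The YLR157W-D segment (chromosome XII, 475326 to 475553) was the only one outside a reading frame and lies close to the ribosomal DNA among repeated sequences, where the placing of reads is uncertain. Other segments of 4 mg lay in LPD1, the lipoamide dehydrogenase of the tricarboxylic acid cycle, URA2, of pyrimidine synthesis, PDR1 and PDR15, a regulator and a transporter of drug resistance, FKS1, a cell wall glucan synthase, and DAL4, the allantoin permease. These genes were picked after their values were seen.

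The 5 widest of 100 mg lay in PFK1, a phosphofructokinase subunit of glycolysis, CUE5, a ubiquitin-binding autophagy receptor, CNN1, RPL16B and AMA1. The PFK1 segment (chromosome VII, 972747 to 972969) had the nearest 4 mg peaks 11, 1927 and 728 bp away, and the CUE5 segment (chromosome XV, 408546 to 408760) 61, 130 and 78 bp away. The AMA1 segment (chromosome VII, 946521 to 946692) was 3045, 5988 and 3087 bp from them. Segments also lay in CYC8, a general corepressor, and KOG1, a subunit of the TORC1 kinase complex, both named after their values were seen.

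These segments recurred at other biomasses. Of the 31 of 4 mg, 19 were under a peak in 3 of 3 20 mg lists and 24 in 3 of 3 500 mg lists. Of the 11 of 100 mg, 10 were covered in 3 of 3 20 mg lists and 3 in 3 of 3 500 mg lists. The matching shares over all common segments were not computed. The 20 mg lists held 6173, 6436 and 6164 nuclear peaks, more than any of the 6 lists compared, so cover at 20 mg is the less telling. No segment of either set was absent from both other biomasses. The surplus of 4 mg over 100 mg turned round with the 3000 strongest peaks of each list, where there were 16 segments of 4 mg and 26 of 100 mg. It also moved with single lists, for the count of 4 mg was 212 with 100 mg replicate 2 left out and that of 100 mg 64 with 100 mg replicate 1 left out, where fewer lists have to be free of a peak or to share one.

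Where each of the 6 lists had exactly 1 peak in a region, the summits were almost at the same place. There were 1981 such regions. The mean 4 mg summit lay a median of 0.333 bp downstream of the mean 100 mg summit along the gene, the median distance regardless of direction was 14 bp, and 67.8% of regions were within 25 bp. In 66 regions (3.33%) all 3 4 mg summits lay on 1 side of all 3 100 mg summits and the means differed by 50 bp or more, with 4 mg farther downstream in 38 (1.92%) and farther upstream in 28 (1.41%). At any distance, 196 regions (9.89%) were separated. A random split of 6 lists into 3 and 3 would separate a region in either direction with a probability of 0.1, so this share is no more than that. Between single lists the median distance was 16 to 19 bp within 4 mg, 22 to 30 bp within 100 mg and 16 to 26 bp across biomasses.

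The largest shifts downstream at 4 mg were at HSP150, a secreted cell wall protein, FCY22, of the purine and cytosine permease family, MNN2, a mannosyltransferase, MAC1 and IMA4, an isomaltase with near-identical copies. At FCY22 the 4 mg summits lay 1021, 960 and 794 bp from the start codon and the 100 mg summits 722, 718 and 651 bp, a mean difference of 228 bp with no overlap. At HSP150 the positions were 199, 882 and 201 bp at 4 mg and 150, 165 and 139 bp at 100 mg, so that 4 mg replicate 2 sets most of the mean shift of 276 bp. MAC1 and IMP2, a subunit of the mitochondrial inner membrane peptidase, were the 2 of these 66 regions where the mean summit changed sides of the start codon, inside the gene at 4 mg and upstream of it at 100 mg. At IMP2 the summits lay at 147, 157 and 150 bp in the 4 mg lists and at -98, 131 and -113 bp in the 100 mg lists, so the second 100 mg replicate sat inside the gene as well.

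The largest shifts upstream at 4 mg were at AAC1, an ADP/ATP carrier of the mitochondrion, VMA1, the catalytic subunit of the vacuolar ATPase, BUD21, of small ribosomal subunit assembly, DPI8 and PNC1, a nicotinamidase. BUD21 (chromosome XV, region 472112 to 472802) had summits at -485, -487 and -480 bp from the start codon in the 4 mg lists and at -251, -302 and -231 bp in the 100 mg lists, a mean shift of -223 bp. The BUD21 and VMA1 regions were both classed as coding sequence beyond the first 300 bp. Their summits lay upstream of the BUD21 and VMA1 start codons, so that coding sequence belongs to other frames. At AAC1 the summits lay at -273, -254 and -270 bp in the 4 mg lists and at 440, -246 and -223 bp in the 100 mg lists, so the shift rests on 100 mg replicate 1. At PNC1 they lay at 250, 249 and 240 bp at 4 mg and at 507, 253 and 521 bp at 100 mg, where replicate 2 was 3 bp from the nearest 4 mg summit.

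Widths separated in both directions. The 4 mg peak was wider in all pairs of lists in 47 of the 1981 regions (2.37%) and narrower in 72 (3.63%). For both directions together, the probability under a random split is again 0.1. At PAT1, an activator of mRNA decapping, peaks were 522, 542 and 530 bp wide at 4 mg and 255, 284 and 208 bp at 100 mg. At FZF1, a sulfite-response transcription factor, they were 275, 269 and 241 bp at 4 mg and 517, 537 and 617 bp at 100 mg. RKR1, PMT2, CDC13 and MRPL4 followed PAT1 among the wider peaks, and FET4, PDX3, MRA1 and APC11 followed FZF1 among the narrower. Without 4 mg replicate 2 the number wider was 470, and without 100 mg replicate 2 the number narrower was 277. A list left out loosens the rule, so part of such a rise is by construction. The counts also varied with the list left out, from 72 to 470 wider and from 95 to 277 narrower.

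**Figure D5:**
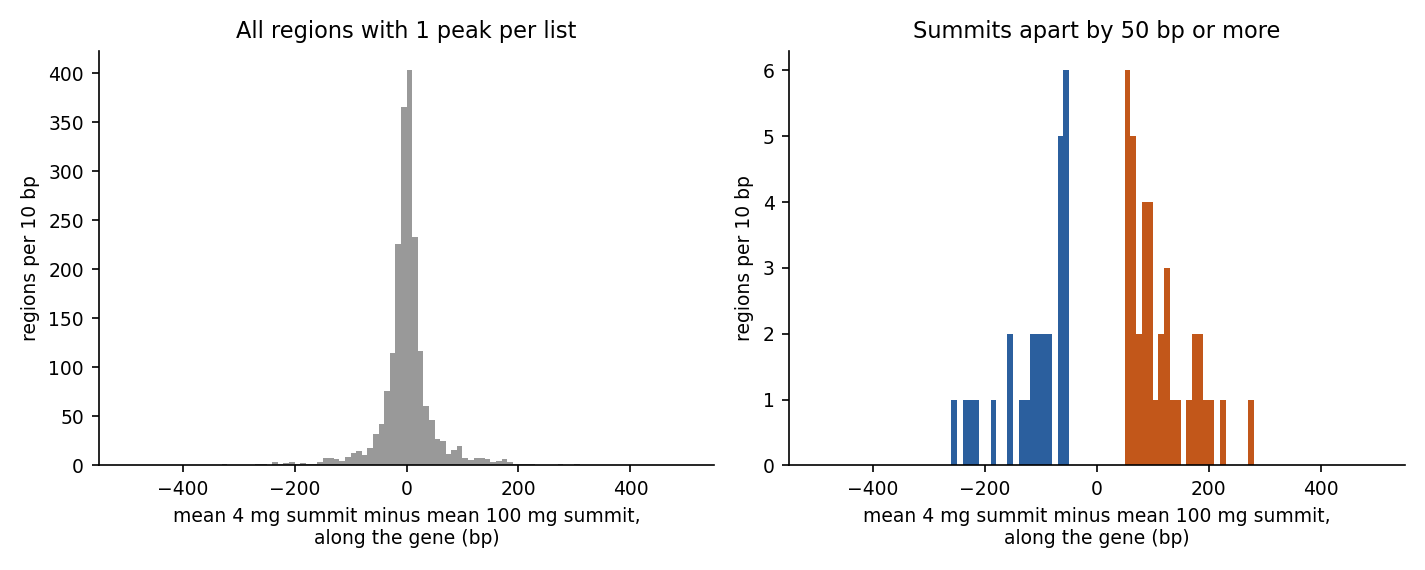
Mean 4 mg summit minus mean 100 mg summit along the gene, in regions per 10 bp, for all 1981 regions with 1 peak in each list (left) and for the 66 in which the summits of both groups do not overlap and differ by 50 bp or more (right; orange, 4 mg downstream; blue, 4 mg upstream). The left panel is centred on 0, and the right panel holds 38 regions downstream and 28 upstream.

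Transfer RNA genes, the class with the highest share of summits for its size, were under a peak in 159, 190 and 183 of 275 cases in the 4 mg lists and in 121, 182 and 181 in the 100 mg lists. The low value was that of 100 mg replicate 1, and the remaining lists overlapped. In all 6 lists 103 of the 275 were covered and in none 55. EMT1, an elongator methionine tRNA gene on chromosome IV (1175829 to 1175901), was the only tRNA gene covered in all 3 4 mg lists and no 100 mg list (0.364%), and no tRNA gene had the reverse (0%). Yeast tRNA genes occur in families of identical copies, so single genes are uncertain.

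Gene groups known for their part in growth on glycerol and ethanol had promoter shares that overlapped between the biomasses. Of 25 gene lists, none (0%) had promoter shares that did not overlap between the groups, and 1 (4%) had such coding shares. All 3 ATO genes of acetate transport and ammonium export had promoter and coding summits in all 6 lists. Of 16 genes of gluconeogenesis and the glyoxylate cycle, 9 had a promoter summit in all 6 lists, among them ICL1, the isocitrate lyase, FBP1, the fructose bisphosphatase, MLS1, the malate synthase, and ACS1, the acetyl-CoA synthetase. Over all genes 12.0% of promoters had a summit in all 6 lists. Only 3 of the 16 were marked in more 4 mg lists and 2 in more 100 mg lists. JEN1, the lactate permease, was among the 3, with a promoter summit in 2 of 3 4 mg lists and 0 of 3 100 mg lists and a coding summit in all 6. Its promoter was under a peak in all 6 lists, and the nearest 100 mg summits lay 60, 29 and 33 bp outside the window.

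Promoters of ribosomal proteins were marked for 52.6%, 52.6% and 53.3% of 137 genes in the 4 mg lists and 46.0%, 53.3% and 56.9% in the 100 mg lists, against 22.8% and 24.4% of all promoters. In all 6 lists 63 of 137 were marked, against 12.0% of all promoters. Histone promoters were marked in all 6 lists for 8 of 11 genes, several of them divergent pairs sharing 1 summit. HTA1, which encodes H2A, was marked in 1 of 3 4 mg lists and 3 of 3 100 mg lists, but in the remaining 4 mg lists the nearest summit lay 1 and 10 bp outside the window. In the tricarboxylic acid cycle 8 of 17 promoters were marked in all 6 lists. The succinate dehydrogenase genes SDH2 and SDH4 went opposite ways, SDH2 with 3 of 3 4 mg and 1 of 3 100 mg lists and SDH4 with 1 of 3 4 mg and 3 of 3 100 mg lists. The SDH2 promoter was under a peak in all 6 lists, and that of SDH4 under none in 2 of the 4 mg lists.

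Over all genes, 493 promoters (8.22%) were marked in more 4 mg lists and 743 (12.4%) in more 100 mg lists. The groups that leaned furthest to 100 mg in the promoter were hexose transporters, with 30.2% ± 7.27 of 21 genes at 4 mg and 39.7% ± 15.3 at 100 mg, and heat shock genes and chaperones, with 13.3% ± 2.31 of 25 genes at 4 mg and 22.7% ± 12.2 at 100 mg. Both spreads came from 100 mg replicate 3, which marked 57.1% of the hexose transporters and 36.0% of the heat shock genes, against 28.6% and 33.3%, and 12.0% and 20.0%, in the other 100 mg lists. SSA1, an Hsp70 chaperone, and HSP26, a small heat shock protein, each had a promoter summit in 0 of 3 4 mg lists and 2 of 3 100 mg lists. At SSA1 no base of the promoter was under a peak in the 4 mg lists, whereas at HSP26 it was under a peak in all 6, with the summits at -597, -557 and -564 bp from the start codon at 4 mg and at -554, -490 and -465 bp at 100 mg, on both sides of the window edge.

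Amino acid synthesis was the only group whose coding shares did not overlap. A coding summit lay in 67.0%, 59.3% and 68.1% of 91 genes in the 4 mg lists and in 69.2%, 71.4% and 74.7% in the 100 mg lists, with means of 64.8% ± 4.79 and 71.8% ± 2.77. Over all genes the means were 45.7% ± 3.01 at 4 mg and 46.9% ± 5.30 at 100 mg. Of the 91, 5 were marked in more 4 mg lists and 21 in more 100 mg lists, where over all genes it was 654 (10.9%) and 853 (14.2%), and the median difference in lists was 0 both for the group and for all genes. ARG4, the argininosuccinate lyase, and ILV6, of branched-chain amino acid synthesis, had coding summits in 1 of 3 4 mg and 3 of 3 100 mg lists, BAT1 and SER1 in 0 of 3 4 mg and 2 of 3 100 mg lists, and HIS6 in 2 of 3 4 mg and 0 of 3 100 mg lists. ILV6 was under a peak in all 6 lists, whereas BAT1 and SER1 had no base under one in the 4 mg lists, nor HIS6 in the 100 mg lists.

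The PAU and COS families, multigene families near chromosome ends, leaned to 4 mg. Coding summits lay in 63.9%, 66.7% and 66.7% of 36 genes at 4 mg and in 44.4%, 66.7% and 47.2% at 100 mg, so 100 mg replicate 2 equalled the 4 mg lists. Over all genes the mean coding share was 45.7% at 4 mg and 46.9% at 100 mg. PAU3, PAU16, PAU19 and PAU21 had coding summits in 3 of 3 4 mg and 1 of 3 100 mg lists. Members of these families are close copies of each other, and reads cannot be told apart between them with certainty. In glycolysis 18 of 20 genes had a coding summit in all 6 lists, the exceptions being PFK1 and ENO1, each with 2 of 3 4 mg and 3 of 3 100 mg lists. Of the cell wall genes 29 of 37 did, and of all 6000 genes 30.25%.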

How the data were processed

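FAIRE and input DNA of BY4742 colonies was sequenced on a NextSeq 500 with single-end reads of 75 bp, per the labels' protocols. The submitters' processing notes name MACS2 2.1.1.20160309, FastQC 0.11.5, Bowtie2 2.2.8, bedtools 2.26.0, SAMtools 1.4 and the builds sacCer3 and R64; the peak threshold, other settings and the treatment of reads with several matches are in none of the sources used here. Each deposited list holds, per peak, a position, a score, a fold enrichment over the list's own input, and −log10 p and −log10 q, all made by the authors. Peaks were called per replicate, and the score was used only within a list. The deposited fold enrichment, a ratio, was averaged over the 3 lists of a group to rank the separating genes. Its median differed between lists, from 1.87 in 100 mg replicate 3 to 2.80 in 4 mg replicate 3. Read totals were not analysed here. The background worked back from fold enrichment and −log10 p per peak corresponded to 0.236 to 0.250 reads per bp over the 6 lists. A peak that is missing from a list may lie just under its threshold.

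From the lists, summits on the 16 nuclear chromosomes were assigned to promoters (500 bp upstream of the start codon), coding sequences and 9 classes of the R64 annotation (RefSeq), with Python 3.11.15, numpy 2.4.6, pandas 2.3.3 and scipy 1.17.1. Per-list measures were compared by the two-sided exact permutation test over the 20 splits of 6 lists, with Benjamini-Hochberg adjustment within each family of measures; single genes and regions were counted and not tested. The counting was checked on simulated copies of 1 list with slightly jittered positions and planted differences. Lost peaks and the spread between real replicates were not simulated, and planted shifts were only counted as called. The check therefore gives no sensitivity for the real lists. Named genes were the separating promoters and coding sequences with the highest fold enrichment, the 5 widest separate regions, the 5 largest shifts in each direction, and members of 25 gene lists; further separating genes are named to complete each set. List members that differ between the groups by 2 lists, and examples of members marked in all 6, were picked after their values were seen. Members and lists were chosen with earlier results of these data known. Of the listed names, 1 each for nitrogen use, cell wall and iron had no gene of its own. Alternatives were a −log10 q minimum of 5, the 3000 strongest peaks, other windows, overlaps and shift distances, each list left out, and lists split by whether the recovered pileup was whole within 0.02.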

Additional observations from a re-analysis of the deposited data

How the results depend on the processing

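Values are 4 mg minus 100 mg unless called counts. The sign of several small differences and most counts depended on the processing. With a −log10 q of 5 or more, the difference was 520 peaks, 0.511 percentage points of promoters, -0.0526 points for tRNA genes, 0.0121 for other RNA genes and 0.129 for convergent intergenic DNA; counts were 24 coding sequences of 4 mg and 4 of 100 mg, 5 regions of 100 mg, 33 shifted and 27 wider peaks. With the 3000 strongest peaks of each list, where peak number is equal by construction and was not computed, median width differed by 16.2 bp, tRNA genes by -0.0889, other RNA genes by 0.0667 and convergent DNA by 0.133 points; counts were 16 coding sequences of 100 mg, 16 regions of 4 mg and 26 of 100 mg, 19 shifted, 20 wider and 18 narrower peaks.

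Over the lists of whole recovered pileup (1 against 2, no test was run), width differed by 38 bp, Ty frames by 0.688 points, divergent by -0.850, tandem by -0.793 and convergent DNA by 0.245; 6 chromosomes did not overlap. Counts there, with fewer lists to agree, were 101 and 162 promoters, 105 and 154 coding sequences and 249 and 278 regions of 4 mg and of 100 mg alone, 525 shifted, 1407 wider and 471 narrower peaks. Over the other lists (2 against 1, also untested) the differences were 552.5 peaks, 458.6 kb, -57 bp in width, 2.46 points of promoters, 0.741 for tRNA genes, 0.0407 for other RNA genes, -1.19 for the first 300 coding bp, -0.0775 for tandem and -0.364 for convergent DNA; 11 chromosomes did not overlap. Counts were 238 and 158 promoters, 318 and 152 coding sequences, 773 and 196 regions, 523 shifted, 560 wider and 989 narrower peaks.

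A window of 250 bp gave 1 promoter of 4 mg and 5 of 100 mg, overlap of 50 bp gave 2 of 100 mg, and a minimum shift of 25 or 100 bp gave 140 or 30 shifted peaks. Apart from fewer lists and thresholds by construction, the cause was not tested.

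With each list left out in turn, differences ranged from -517 to 273 peaks, -28.8 to 304.6 kb, -30.0 to 9.25 bp in width and -3.74 to 0.797 points of promoters. By class they ranged from -0.0612 to 0.383 for tRNA genes, -0.0546 to 0.0160 for other RNA genes, -0.215 to 0.341 for Ty frames, -0.751 to 0.419 for the first 300 coding bp, 0.0894 to 1.05 for further coding sequence, -0.564 to 0.0820 for divergent, -0.479 to -0.163 for tandem and -0.237 to 0.0872 for convergent DNA and 0.0299 to 0.0637 for chromosome ends, and 1 to 4 chromosomes did not overlap. Counts ranged from 13 to 29 promoters, 19 to 49 coding sequences and 43 to 212 regions of 4 mg, from 18 to 41 promoters, 17 to 39 coding sequences and 14 to 64 regions of 100 mg, and from 110 to 178 shifted, 72 to 470 wider and 95 to 277 narrower peaks. For the named separating genes, the 5 settings that keep all 6 lists left 61 calls in place and ended 90, so most did not hold; leaving lists out can only keep such calls, by construction.

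Replicates of the same number did not vary together in covered length in 6000 promoters. The deviations from the group means had correlations of 0.0816, 0.192 and -0.147, against -0.419 to 0.309 for lists of unlike number. Whether samples of the same number share a colony, plate or batch cannot be told from these values. With a replicate block, the exact sign-flip test gave p of 0.25 to 1, where 0.25 is the smallest it can give (1 for the difference of -120 peaks and 0.75 for that of -1.64 points of promoters), and it changed no call, since none of the tests had passed. With peak lists alone, a missing peak cannot be told apart from one just under the threshold.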
